A study of Homo sapiens with 6 samples.

Results

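The mRNAs described here are E2F5, CCND1, RRM2, HMGA2 and HRAS, 5 reported targets of the let-7 microRNAs among the 7682 genes of the table. They were chosen by name after their half-life changes between MOV10 siRNA and mock cells had been seen. E2F5, CCND1 and RRM2 were chosen because the change was upward, and HMGA2 and HRAS because it was downward. The changes between siRNA and mock cells are therefore given for these genes as a description, with no test. The cells were HEK293, a human embryonic kidney line, given either MOV10 siRNA or a mock transfection, and labelled with 700 µM 4-thiouridine (4sU) for 60 min. The labels name no control siRNA, so loss of MOV10 and other effects of this siRNA cannot be told apart. MOV10 is an RNA helicase. Poly(A)+ RNA was sequenced from 3 fractions of each condition: total RNA, the 4sU-labelled RNA made during the labelling, and the flow-through, which holds RNA without the label. The labels name 6 samples, a single one per condition and fraction, but the table has replicates 1 and 2 of each in 12 expression columns, beside 4 columns of half-lives that are the authors' own. Nothing in the sources used here says that replicates 1 and 2 were separate cultures, so each SD and p-value measures the spread between these columns only.

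Let-7 is a family of small RNAs that pair, through a short stretch near their 5′ end called the seed, with sites in the 3′ UTRs of mRNAs. Paired Argonaute complexes bring the mRNA to deadenylation, decapping and decay. The family is known for restraining proliferation and for rising as cells differentiate, and many of its targets drive the cell cycle or growth signalling. MOV10 is known to associate with Argonaute proteins. E2F5 is a transcription factor that binds the pocket proteins RBL1 and RBL2, and CCND1 encodes cyclin D1, the partner of CDK4 and CDK6. RRM2 is the small subunit of ribonucleotide reductase, which makes deoxyribonucleotides for DNA synthesis. HMGA2 is an AT-hook chromatin protein of embryonic and tumour cells, and HRAS is a GTPase that passes growth factor signals to the RAF kinases.

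The mature family members are shown because the search for sites rests on their shared seed, bases 2 to 8, which is in capitals. Sequences are those of RefSeq (GRCh38.p14), written 5′ to 3′. All 9 mature let-7 and miR-98 RNAs in that set had the same seed, GAGGUAG, and 4 of them show how the rest varies. The microRNAs themselves were not measured here.
hsa-let-7a-5p: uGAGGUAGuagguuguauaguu
hsa-let-7d-5p: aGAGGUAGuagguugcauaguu
hsa-let-7i-5p: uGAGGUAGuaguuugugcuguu
hsa-miR-98-5p: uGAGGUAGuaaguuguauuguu

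Did the 5 mRNAs carry a match to that seed? Annotated 3′ UTRs of GENCODE v29 were searched on the mRNA strand for CTACCTCA, the 8-base match, and for the 7-base matches CTACCTC and TACCTCA outside it. GENCODE v29 is on GRCh38 and the authors' reads were aligned to hg18, so positions are counted from the first base after the stop codon and no genome coordinates are given. RRM2 (chromosome 2) held 1 match, an 8-base one at bases 136 to 143 of a 3′ UTR of 2033 bases. CCND1 (chromosome 11) held 2 matches of 7 bases in 3192. E2F5 held 1 match of 7 bases, at bases 27 to 33 of 656. HRAS (chromosome 11) held 0 matches in any of its 5 annotated 3′ UTRs, the longest of 533 bases.

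HMGA2 (chromosome 12) differed between its annotated ends. Its longest 3′ UTR, of 7421 bases, held 0 matches, whereas a transcript with a 3′ UTR of 3003 bases held 7, of which 1 had 8 bases. The deposited values are per gene, so the share of each HMGA2 end in these cells was not measured. The 30-base stretches that follow are shown as examples of the 8-base match and of each 7-base form, with the match in capitals.
RRM2, bases 136 to 143: ctttaaaactgtgtagCTACCTCAcaacca
HMGA2, bases 21 to 28: cgccaacgttcgatttCTACCTCAgcagca
HMGA2, bases 1256 to 1262: atccccactactcaataCTACCTCtgaatg
CCND1, bases 2214 to 2220: aggttgctgtttcacaaTACCTCAtgcttc

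Set against other genes, a match in the longest 3′ UTR was present in 17.2% of the 5664 expressed genes with an annotated 3′ UTR, and an 8-base match in 4.17%. Each was also set against the longest 3′ UTRs of other expressed genes, where these were within 20% of its own length. Of these, 18.1% of 840 held a match for RRM2, 25.4% of 745 for CCND1, 7.29% of 617 for E2F5 and 6.37% of 565 for HRAS. For the longest HMGA2 3′ UTR, which held 0 matches, the share was 55.3% of 197. For the HMGA2 transcript with 7 matches, 24.2% of 778 such 3′ UTRs held any match and 0 held as many. That HMGA2 3′ UTR was picked for its matches and is not the longest of its gene, so this comparison is uneven. A second sequence, TACTGCA, which marked genes with shorter half-lives in an earlier pass over these data, was in 664 of the 5664 longest 3′ UTRs (11.7%). It was in 0 of the annotated 3′ UTRs of E2F5, CCND1, RRM2, HMGA2 and HRAS. Among 3′ UTRs near the length of each gene's longest, it was in 4.05% for E2F5, 17.4% for CCND1 and 11.5% for RRM2. The shares were 39.6% for HMGA2 and 4.07% for HRAS.

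**Figure D1:**
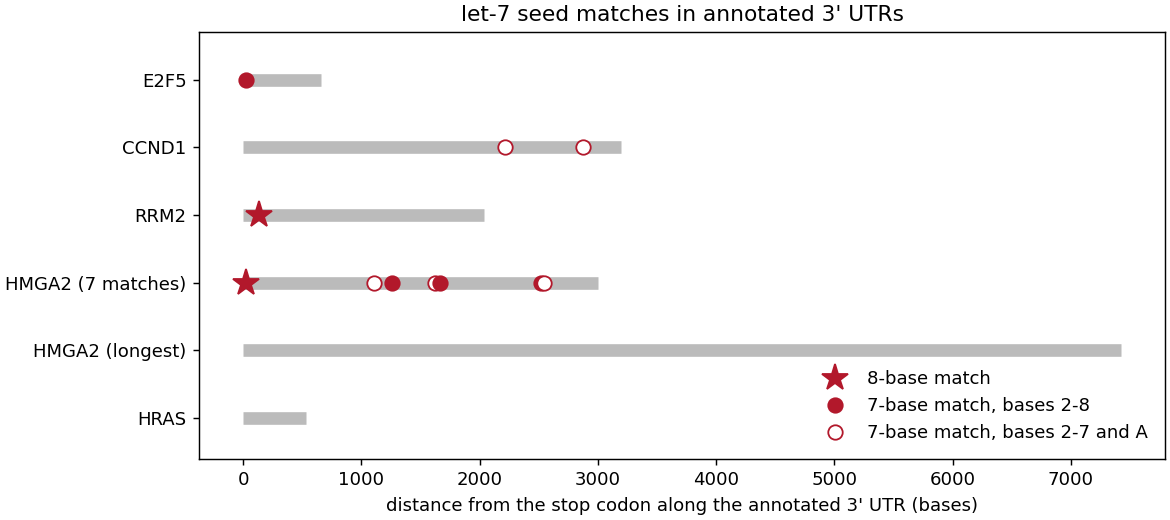
Position of let-7 seed matches along annotated 3′ UTRs, in bases from the stop codon; grey bars are 3′ UTRs to scale, stars are 8-base matches, filled circles matches to bases 2 to 8 and open circles matches to bases 2 to 7 followed by A. The HMGA2 transcript of 3003 bases carries 7 matches, the longest HMGA2 3′ UTR and that of HRAS carry 0.

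The table holds normalised values without a named unit and no counts, so no counting error can be given, and levels are not compared between genes. In low values, ratios of small whole numbers gave relative depths of replicate 2 over replicate 1 between 1.01 and 1.32. The tests kept the 6064 genes whose total RNA averaged at least 5 in siRNA and in mock cells, all 5 let-7 targets among them. Each change is siRNA minus mock, taken on mean log2 half-life or mean log2(value + 1), relative to the median gene of each column; ratios of RNA values are plain ratios of means. Before that centring, the median gene changed by 0.20 in half-life, by -0.008 for total RNA, by 0.14 for labelled RNA and by 0.017 for flow-through RNA. MOV10 itself had total RNA values of 3.53 and 3.64 in siRNA cells, against 13.1 and 14.6 in mock cells. Of 7 genes fixed as HEK293 markers, NEFL and VIM had rows, and of 10 markers of other cell types 0 had a row in the table used here.

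E2F5 had the largest upward change of the 5. Its half-life was 859 and 894 min in siRNA cells, against 399 and 432 min in mock cells, 1.85-fold longer relative to the median gene (log2 change 0.88). Relative to the median gene it stood at 0.17 and -0.20 in the siRNA columns, against -0.90 and -0.91 in the mock columns. In rank it lay at percentile 49.3 of all genes in siRNA cells and at percentile 22.5 in mock cells, so a short-lived mRNA moved to the middle of the range. Total E2F5 RNA was 19.4 and 18.5 in siRNA cells, against 12.4 and 10.3 in mock cells (18.95 ± 0.672 and 11.4 ± 1.46, SD, n = 2 columns each), a ratio of 1.67. Flow-through E2F5 RNA was 29.35 and 26.5 in siRNA cells, against 14.5 and 14.1 in mock cells, a ratio of 1.95. Labelled E2F5 RNA was 11.2 and 13.0 in siRNA cells, against 10.6 and 9.68 in mock cells. The siRNA columns lay above the mock columns in every fraction, but relative to the median gene the labelled change was 0.09, against 0.71 in total and 0.93 in flow-through RNA. In GENCODE v29, exons of E2F5 overlap those of 2 genes on the opposite strand, and their reads were not separated here.

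CCND1 was the shortest-lived of the 5 in mock cells. Its half-life was 316 and 447 min in siRNA cells, against 194 and 241 min in mock cells, 1.52-fold longer relative to the median gene (log2 change 0.60). The 2 siRNA columns were further apart than the 2 mock columns, yet relative to the median gene they stood at -1.28 and -1.21, against -1.94 and -1.75. Total CCND1 RNA was 10.4 and 9.94 in siRNA cells, against 8.13 and 8.94 in mock cells (10.2 ± 0.333 and 8.54 ± 0.568, SD, n = 2 each), a ratio of 1.19. Labelled CCND1 RNA went the other way. It was 12.9 and 12.9 in siRNA cells, against 16.4 and 15.01 in mock cells, a ratio of 0.818. Flow-through CCND1 RNA was 10.1 and 10.4 in siRNA cells, against 8.22 and 9.13 in mock cells. Cyclin D1 mRNA was thus higher in the old RNA and in the total and lower in the RNA of the labelling period, without overlap between the columns of siRNA and mock cells in any fraction. Exons of CCND1 overlap those of LTO1 on the opposite strand in GENCODE v29, and reads of the pair were not separated here.

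RRM2 had the smallest upward change. Its half-life was 504 and 661 min in siRNA cells, against 364 and 407 min in mock cells, 1.31-fold longer relative to the median gene (log2 change 0.39). Total RRM2 RNA was 102.9 and 102.7 in siRNA cells, against 70.6 and 77.4 in mock cells (102.8 ± 0.132 and 74.0 ± 4.79, SD, n = 2 each), a ratio of 1.39. Flow-through RRM2 RNA was 122.6 and 126.1 in siRNA cells, against 99.1 and 100.6 in mock cells, a ratio of 1.25. Labelled RRM2 RNA was 94.7 and 103.0 in siRNA cells, against 99.5 and 93.4 in mock cells, where the columns overlapped. Its labelled change was -0.10 relative to the median gene and 0.034 without that centring. RRM2 has 3 processed pseudogenes named for it in GENCODE v29 and shares exon positions with another gene on its own strand, and such reads were not separated here.

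HMGA2 had the largest downward change, and it was the gene with the most seed matches in any annotated 3′ UTR. Its half-life was 481 and 657 min in siRNA cells, against 895 and 853 min in mock cells, 1.78-fold shorter relative to the median gene (log2 change -0.83). Relative to the median gene it stood at -0.67 and -0.65 in the siRNA columns, against 0.27 and 0.08 in the mock columns. Total HMGA2 RNA was 9.12 and 8.54 in siRNA cells, against 22.0 and 20.7 in mock cells (8.83 ± 0.410 and 21.4 ± 0.860, SD, n = 2 each), 2.42-fold lower. Flow-through HMGA2 RNA was 8.96 and 9.09 in siRNA cells, against 29.5 and 27.0 in mock cells, 3.13-fold lower. Labelled HMGA2 RNA was 7.42 and 7.66 in siRNA cells, against 12.1 and 12.1 in mock cells, 1.60-fold lower. All 3 fractions of HMGA2 were thus lower in siRNA cells with no overlap of columns, the labelled RNA included, which set it apart from E2F5, CCND1 and RRM2, whose total RNA was higher. An antisense transcript overlaps HMGA2 exons in GENCODE v29, and its reads were not separated here.

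HRAS had the smallest changes of the 5 in total and flow-through RNA, though not in labelled RNA. Its half-life was 459 and 671 min in siRNA cells, against 613 and 677 min in mock cells, and these columns overlapped. Relative to the median gene HRAS stood at -0.74 and -0.62 in the siRNA columns, against -0.28 and -0.26 in the mock columns, a log2 change of -0.41 (1.33-fold shorter). Without the centring the change was -0.215. Total HRAS RNA was 24.1 and 24.4 in siRNA cells, against 23.9 and 29.9 in mock cells (24.2 ± 0.197 and 26.9 ± 4.22, SD, n = 2 each), with overlap. Flow-through HRAS RNA was 34.2 and 34.1 in siRNA cells, against 41.0 and 38.8 in mock cells. Labelled HRAS RNA was 18.6 and 15.9 in siRNA cells, against 13.7 and 12.03 in mock cells, a ratio of 1.34. The downward half-life of HRAS therefore stood beside a higher labelled and a lower flow-through value, with overlapping total values, whereas HMGA2 was lower in all 3 fractions.

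**Figure D2:**
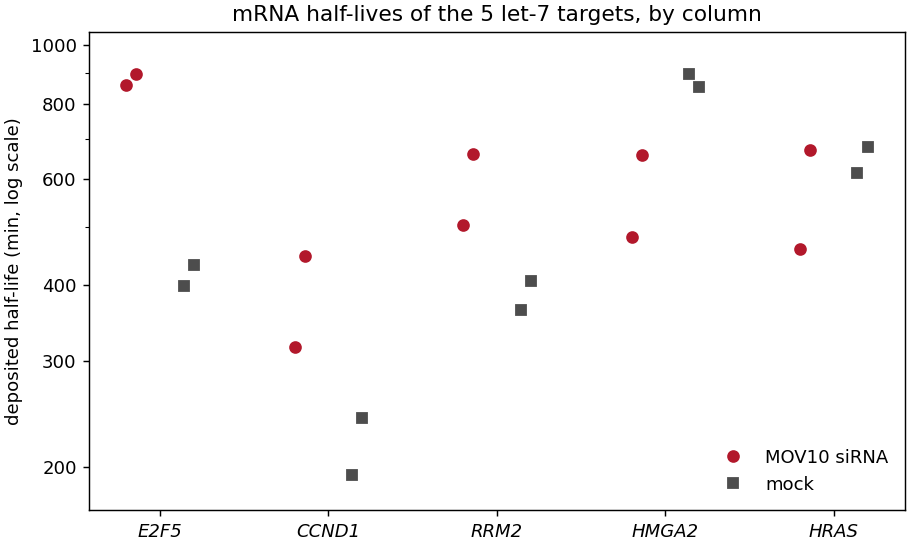
Half-lives computed by the authors for the 5 let-7 targets, in minutes on a log scale; each point is 1 column, siRNA circles left of mock squares. E2F5, CCND1 and RRM2 lie higher in siRNA cells, HMGA2 lies lower, and the HRAS columns overlap (459 and 671 min, against 613 and 677 min).

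**Figure D3:**
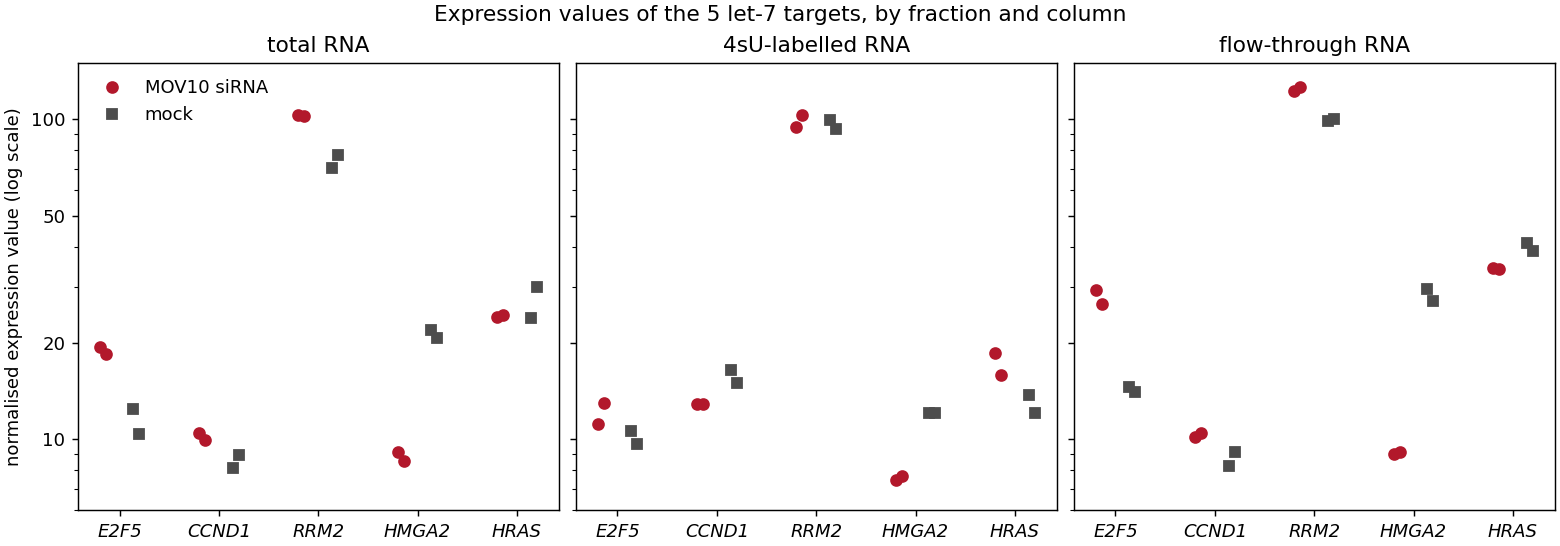
Normalised expression values in total, 4sU-labelled and flow-through RNA, on a log scale; each point is 1 column, siRNA circles left of mock squares. HMGA2 is lower in all 3 fractions of siRNA cells, while CCND1 is higher in total and flow-through RNA and lower in labelled RNA.

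The 5 half-lives ran from 316 to 894 min over the siRNA columns, against 194 to 895 min over the mock columns. In mock cells the order of the deposited half-lives from short to long was CCND1, RRM2, E2F5, HRAS and HMGA2, with the columns of RRM2 (364 and 407 min) and E2F5 (399 and 432 min) overlapping. In siRNA cells CCND1 was still shortest and E2F5 was longest, and HRAS (459 and 671 min), HMGA2 (481 and 657 min) and RRM2 (504 and 661 min) could not be put in order. Recomputing half-lives from the 3 fractions by 1 rule for all columns gave the same direction for each: log2 changes of 0.84 for E2F5, 0.64 for CCND1, 0.425 for RRM2, -0.76 for HMGA2 and -0.47 for HRAS. The median gene itself shifted between the versions: its deposited half-life was 764.3 and 1029.6 min in siRNA cells, against 742.1 and 809.6 min in mock cells, and its recomputed one 559.0 and 513.0 min in siRNA cells, against 624.6 and 677.2 min in mock cells. Half-life changes are for that reason read relative to the median gene. The recomputed half-lives of HRAS were 474 and 506 min in siRNA cells, against 777 and 871 min in mock cells, and did not overlap. Those of HMGA2 were 318 and 289 min in siRNA cells, against 640 and 608 min in mock cells. The order therefore depended on the version. Among recomputed values HRAS was the longest in mock cells, above HMGA2, and in siRNA cells HRAS stood above HMGA2 and RRM2 and overlapped E2F5 (669 and 482 min). The recomputed half-lives of RRM2 were 340 and 298 min in siRNA cells, against 272 and 304 min in mock cells, and did overlap before centring.

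**Figure D4:**
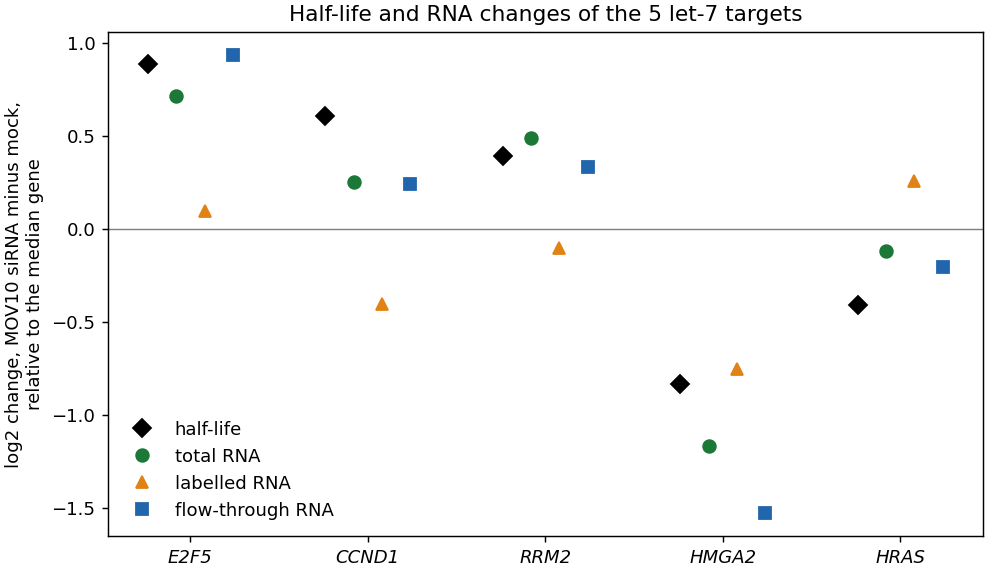
Log2 change, siRNA minus mock, relative to the median gene, of half-life, total, labelled and flow-through RNA for each of the 5 let-7 targets. Labelled RNA lies on the opposite side of 0 from half-life in CCND1, RRM2 and HRAS, and on the same side in E2F5 and HMGA2; without the centring RRM2 labelled RNA moves to 0.034.

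How was each mRNA divided between new and old RNA in mock cells? Mock half-lives, which the choice of the 5 genes used, come from these same mock fractions, so labelled against flow-through RNA in mock cells is given for them as a description, with no test. CCND1 was highest in the labelled fraction, with 16.4 and 15.01 in labelled RNA, against 8.22 and 9.13 in flow-through RNA, a log2 difference of 1.68 relative to the median gene. RRM2 was at 0.84 and E2F5 at 0.43. HRAS had 13.7 and 12.03 in labelled RNA, against 41.0 and 38.8 in flow-through RNA, a difference of -0.67. Its deposited mock half-lives stood below the median gene (-0.28 and -0.26), while those recomputed from the fractions stood above it (0.31 and 0.36). The cause of that difference was not tested. HMGA2 was nearer the median gene, at -0.27, with 12.1 and 12.1 in labelled RNA, against 29.5 and 27.0 in flow-through RNA. The 3 genes with longer half-lives after siRNA lay on the labelled side of the median gene and the other 2 on the flow-through side. These mock columns also enter the half-life changes that the 5 were chosen for, so this split is partly built in. Of all 6064 genes, 33.2% were called on the labelled side and 54.6% on the flow-through side, 87.8% in all (limma, Benjamini-Hochberg adjusted p under 0.05). Without centring, 819 genes were on the labelled side and 4823 on the flow-through side, against 2016 and 3311 with it; E2F5 then stood at -0.46 and RRM2 at -0.05.

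Did other reported let-7 targets move in the same way? A list of 29 was set, with earlier results of these data known, and 19 of them passed the expression minimum. In half-life 0 of the 19 rose and 2, IRS2 and DICER1, fell (limma, Benjamini-Hochberg adjusted p under 0.05). Of all genes, 1.88% rose and 4.27% fell, 6.15% in all. At an unadjusted 0.05, 5 of the 19 were higher and 2 lower, where 1475 of all 6064 genes passed in either direction. With recomputed half-lives 3 of the 19 rose and 1 fell, and with replicate number as a block, or without centring, 0 rose and 0 fell. Their median change was 0.095, with 12 of 19 above the median gene, against 0.003 and 50.7% for all genes. IRS2, an adaptor of the insulin receptor, had half-lives of 55 and 82 min in siRNA cells, against 103 and 97 min in mock cells (log2 change -0.77, SE 0.12; limma, adjusted p = 0.02). Its flow-through RNA was 3.19 and 3.34 in siRNA cells, against 9.92 and 10.1 in mock cells. DICER1, the nuclease that cuts microRNA precursors, had half-lives of 301 and 387 min in siRNA cells, against 396 and 409 min in mock cells (log2 change -0.43, SE 0.089; limma, adjusted p = 0.0403). DICER1 did not pass with any 1 column left out (limma, adjusted p from 0.087 to 0.209), and IRS2 passed only without siRNA replicate 2 (0.033 to 0.133).

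IGF2BP3, an RNA-binding protein of fetal tissue, did not pass the half-life test. It was at 748 and 1016 min in siRNA cells, against 578 and 635 min in mock cells (0.33, SE 0.085; limma, adjusted p = 0.0712). In total RNA 5 of the 19 rose and 2 fell, where 12.9% of all genes rose and 14.3% fell, 27.2% in all. IGF1R, a growth factor receptor, had the largest of these increases (0.56; limma, adjusted p = 0.000397), and CDK6, a kinase partner of cyclin D1, was also higher (0.46; limma, adjusted p = 0.00284); this pair was picked out for these values. In labelled RNA 0 of the 19 rose and 4 fell, LIN28B and IRS2 among them, where 9.88% of all genes rose and 11.5% fell, 21.4% in all. At an unadjusted 0.05, 0 of the 19 were higher and 6 lower, where 2129 of all 6064 genes passed in either direction. Without centring 1641 genes rose and 333 fell in labelled RNA, against 599 and 700 with it. In flow-through RNA 6 rose and 4 fell, where 31.7% of all genes rose and 26.8% fell, 58.6% in all. Of the 19 genes, 18 carried a let-7 match in the longest 3′ UTR, and 4 carried TACTGCA. The half-life changes of these 4 were -0.77 for IRS2, 0.002 for IGF2BP1, 0.23 for TGFBR1 and 0.26 for NAP1L1. DICER1, which also fell, carried 0. TACTGCA was first picked out in these same data, so its presence beside these changes is a description only.

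Across all genes, the presence of a seed match went with little difference in half-life. Of the 973 genes with a match in the longest 3′ UTR, the 5 described genes left out, 1.75% rose and 4.52% fell in half-life, with a median change of 0.029. Of the 4686 genes without a match, 1.75% rose and 4.37% fell, with a median of -0.003. In total RNA 182 of the genes with a match rose (18.7%) and 113 fell, against 555 (11.8%) and 703 of those without. These shares are descriptions with no test, and 3′ UTR length differs between genes with and without a match.

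Of 7 genes that make or use let-7 and were past the expression minimum, 0 rose and 1, DICER1, fell in half-life. Of all genes, 1.88% rose and 4.27% fell. At an unadjusted 0.05, 1 of the 7 was higher and 1 lower, where 1475 of all 6064 genes passed in either direction. TNRC6A, the scaffold that links Argonaute to deadenylases, had a half-life change of 0.26 (limma, adjusted p = 0.132), and its total RNA rose (0.57; limma, adjusted p = 0.000204). TARBP2, the RNA-binding partner of DICER1, was at 0.22 in half-life (limma, adjusted p = 0.385). ZCCHC6, a terminal uridylyltransferase acting on let-7 precursors, was at -0.07 in half-life (limma, adjusted p = 0.705), while it rose in labelled RNA (0.56; limma, adjusted p = 0.00192) and in flow-through RNA (0.55; limma, adjusted p = 0.00718). LIN28B, which blocks let-7 maturation, had total RNA values of 17.9 and 16.7 in siRNA cells, against 18.2 and 16.8 in mock cells, and its labelled RNA fell (-0.25; limma, adjusted p = 0.0461).

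Did the partners and relatives of the 5 genes share their direction? Of 11 other E2F and pocket protein genes, 1 half-life rose and 1 fell, where 1.88% of all genes rose and 4.27% fell. The rise was that of E2F3, an activating E2F, with 215 and 296 min in siRNA cells, against 161 and 171 min in mock cells (0.41; limma, adjusted p = 0.0457). The fall was that of RBL2, the pocket protein p130, with 863 and 1276 min in siRNA cells, against 1252 and 1272 min in mock cells (-0.46; limma, adjusted p = 0.0447). Neither call held with any 1 column left out. E2F7, a repressive E2F, was at 0.32 in half-life (limma, adjusted p = 0.0738) and RBL1 at -0.21 (limma, adjusted p = 0.188).

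Of 10 genes of D-type cyclins, their kinases and inhibitors, 1 half-life rose and 2 fell, where 1.88% of all genes rose and 4.27% fell; with replicate number as a block 0 rose and 1 fell. CCND3, another D-type cyclin, had half-lives of 334 and 424 min in siRNA cells, against 492 and 521 min in mock cells (-0.62; limma, adjusted p = 0.0148), and its total RNA fell (-0.65). This is the opposite direction to CCND1, while CCND2 was at -0.07 (limma, adjusted p = 0.691). Among inhibitors of the cyclin-dependent kinases, CDKN2C fell (-0.71; limma, adjusted p = 0.0298) and CDKN1B rose, with 136 and 211 min in siRNA cells, against 98 and 95 min in mock cells (0.62; limma, adjusted p = 0.0332). CDKN1A was at 0.40 (limma, adjusted p = 0.0651). The CCND3 call was lost without mock replicate 1 or 2, and those of CDKN2C and CDKN1B held in 1 of the 4 fits with a column left out.

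Among 8 RAS and RAF pathway genes besides HRAS, 0 rose and 0 fell in half-life, where 1.88% of all genes rose and 4.27% fell. At an unadjusted 0.05, 2 of the 8 were higher and 0 lower, where 1475 of all 6064 genes passed in either direction. RRAS2 was at 0.45 (limma, adjusted p = 0.0617), NRAS at -0.009 (limma, adjusted p = 0.97) and the kinase BRAF at -0.22 (limma, adjusted p = 0.247). In total RNA 3 of the 8 rose and 0 fell, where 12.9% of all genes rose and 14.3% fell.

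Around RRM2, 1 of 9 genes of deoxyribonucleotide synthesis rose in half-life and 1 fell, where 1.88% of all genes rose and 4.27% fell. DUT, the enzyme that removes dUTP, had half-lives of 837 and 1158 min in siRNA cells, against 1582 and 1612 min in mock cells (-0.89; limma, adjusted p = 0.00653), and it passed in each of the 4 fits with a column left out but not without centring, where 0 genes of any list passed. DCK, deoxycytidine kinase, had 928 and 1205 min in siRNA cells, against 645 and 733 min in mock cells (0.43; limma, adjusted p = 0.0403), and passed in 0 of the 4. RRM2B, the p53-inducible relative of RRM2, was at 0.27 (limma, adjusted p = 0.124), and RRM1, the large subunit, named after its values were seen, at 0.063 (limma, adjusted p = 0.755). TK1, thymidine kinase, was at -0.33 (limma, adjusted p = 0.0784).

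Around HMGA2, 0 of 7 HMG chromatin protein genes rose or fell in half-life, where 1.88% of all genes rose and 4.27% fell. At an unadjusted 0.05, 0 of the 7 passed, where 1475 of all 6064 genes did in either direction. HMGA1, the closest relative of HMGA2, was at -0.077 (limma, adjusted p = 0.679), HMGN4 at -0.22 (0.213), HMGN1 at 0.16 (0.41) and HMGN3 at 0.21 (limma, adjusted p = 0.371).

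Which genes followed these 5 most closely over the 12 expression columns? Likeness was Pearson's correlation of log2(value + 1) relative to the median gene, among expressed genes; the 12 columns share 3 fractions and 2 conditions, so the values describe the columns only. Nearest to E2F5 were ANLN (0.976), KIF11 (0.968) and REEP5 (0.955), with half-life changes of 0.36, 0.22 and 0.44. Nearest to CCND1 were SLC38A2 (0.992), C3orf38 (0.991) and RNF139 (0.99), and nearest to RRM2 were MAP2K4 (0.981), TMEM9B (0.98) and HERPUD2 (0.979), with half-life changes from 0.37 to 0.79 over these 6. Among the nearest to HMGA2 were BTBD1 (0.988) and TMEM209 (0.98), with half-life changes of -1.01 and -0.44. Nearest to HRAS were ELOF1 (0.958), NFKBIB (0.942) and LONP1 (0.933), with half-life changes of -0.19, -0.39 and -0.29. Among the 5 themselves CCND1 and RRM2 were alike (0.906), whereas E2F5 and HMGA2 ran opposite to each other (-0.911), and CCND1 and HRAS did so as well (-0.899). The 5 were chosen for their directions between siRNA and mock cells, which these columns hold, so such signs partly follow from the choice. Half-lives come from the same fractions, so a shared half-life direction among the nearest genes is partly built in.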

How the data were processed

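Per the submitters' processing notes, the authors used TopHat2 2.06 and hg18; how expression was quantified is not stated in the labels. The deposited values are a normalised signal for each gene, made by the authors; the header names no unit, and the lowest value is 1.00. Half-lives are the authors', by a published method per the labels' protocols; their unit is not named, and is taken as minutes because values recomputed by first-order decay over 60 min, with fraction weights by total least squares, followed them over genes (Pearson 0.968 to 0.982, log2).

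The 5 genes and all gene lists were chosen with earlier results of these data known. Named genes are the 5, MOV10, list genes past the half-life test, the 2 highest and 2 lowest half-life changes of each list, and the 3 genes most alike; IGF1R, CDK6, LIN28B, CCND2 and RRM1 lie outside that rule and were chosen after seeing their values, and some genes the rule names are not reported here. limma 3.58.1 (R 4.3.3) compared 2 columns with 2, with variances moderated along a mean trend, Benjamini-Hochberg adjusted over 6064 genes at 0.05. It was also run on data simulated with independent noise of its own fitted SDs, which cannot check for effects shared within columns. Each 3′ UTR was at least 20 bases long, from protein-coding transcripts, matched by symbol (93.4% of genes). Half-life columns carry no SD, being the authors' values. Alternatives changed the expression minimum, pseudocount, centring, trend, replicate block, half-life source and columns used. The planned test of labelled against flow-through RNA in mock cells is given for the 5 genes without p-values, since mock half-lives helped choose them.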

Additional observations from a re-analysis of the deposited data

How the results depend on the processing

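The main counts of genes called by limma were 373 for half-life, 1651 for total RNA, 1299 for labelled RNA, 3551 for flow-through RNA and 5327 for labelled against flow-through RNA in mock cells. With an expression minimum of 20 they were 157, 663, 572, 1667 and 2291, from fewer genes tested; E2F5, CCND1 and HMGA2 are below that minimum. Without centring on the median gene 7 half-lives and 1974 labelled values passed. With 1 column left out, half-life calls ranged from 49 to 248, total from 856 to 1765, labelled from 826 to 1145, flow-through from 2602 to 3122 and mock labelled against flow-through from 5042 to 5270. Half-life calls fell by more than 1.5 times without any 1 column (siRNA replicate 1, 158; siRNA replicate 2, 248; mock replicate 1, 49; mock replicate 2, 99), total calls without siRNA replicate 1 (856) or 2 (1013), and labelled calls without mock replicate 2 (826). With replicate number as a block 139 half-lives passed, and the other counts stayed within 1.5 times. Deviations of same-numbered columns correlated over genes at -0.07 for half-life, 0.05 for total RNA, -0.04 for labelled RNA, 0.11 for flow-through RNA and 0.1 for labelled against flow-through RNA in mock cells; with 2 pairs this does not settle whether the numbers pair the columns. Under the block, of the list genes called in half-life, DUT and CCND3 still passed. The changes of the 5 genes kept their direction under all alternatives run, with exceptions only without centring. These were RRM2 labelled RNA (0.034) and, in mock cells, E2F5 (-0.459) and RRM2 (-0.05). Some kept changes came close to 0, such as HRAS total RNA without mock replicate 2 (-0.003) and E2F5 labelled RNA without siRNA replicate 2 (0.004). The alternatives reuse the columns on which the 5 genes were chosen for half-life direction, so kept half-life directions are partly built in. Taking any annotated 3′ UTR gave HMGA2 7 let-7 matches in place of 0. The cause of these differences was not tested. No counts were used, so the error from depth is unknown, and 2 columns a group limit every test.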
